A study of Mus musculus with 59 samples.

Results

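Melanin-concentrating hormone neurons sit in the lateral hypothalamus and zona incerta, just in front of and above the midbrain, and Pmch, the gene for the hormone's precursor, is among the most selective markers of that tissue in the mouse brain. The libraries described here came from VTA tissue (ventral tegmental area), where the dopamine neurons of the reward pathway lie in the midbrain. The 24 self-administration libraries were ordered by their Pmch FPKM (fragments scaled by transcript length and library size, the unit deposited by the authors). The 8 highest are called Pmch-high below and the 8 lowest Pmch-low, so 16 of the 24 libraries, and of 59 in the whole study, form the comparison. The other 8 are called middle. Because the classes were chosen by measured Pmch, the contrast between them is given as a description with no test. Pmch itself, and Parpbp, whose annotated span overlaps Pmch on the opposite strand (chr10:88091432-88146941 against chr10:88091072-88092375, GRCm38), chose or followed the order and are not results.

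The study profiled VTA RNA of male mice by bulk RNA sequencing after cocaine or saline in 4 paradigms. Self-administration, in which mice worked for intravenous infusions, gave 15 cocaine and 9 saline libraries. The other 35 libraries, called injected here, came from acute home-cage injections (5 cocaine, 6 saline), chronic home-cage injections (6 and 6) and conditioning (6 and 6). Strain, age, dose and session times are not stated in the labels, and nothing in the labels says whether libraries are separate animals or pools, so each p-value measures the spread between these libraries, which may be technical. Libraries are named by drug and by the column number in the deposited table.

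As background, the lateral hypothalamus holds 2 well-known peptide populations beside each other, one making melanin-concentrating hormone and the other orexin from the Hcrt precursor in neurons whose axons reach the VTA. Further back lie the tuberomammillary nucleus, where Hdc makes histamine, and the mammillary and supramammillary nuclei, which border the VTA directly and carry transcription factors such as Foxb1 and Barhl1. Nkx2-1 patterns the ventral hypothalamus, and the Dlx genes are transcription factors of GABA neurons of the hypothalamus, zona incerta and forebrain. Cartpt is made both in the lateral hypothalamus and, together with Ucn, in the centrally projecting Edinger-Westphal nucleus of the midbrain.

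In the Pmch-low class Pmch ran from 0.632 to 2.18 FPKM (median 1.34), in the middle from 2.83 to 19.3, and in the Pmch-high class from 22.1 to 197 (median 60.3). At the lower edge of the Pmch-high class, saline library 7 had 22.1 FPKM and the nearest library outside, cocaine library 9, had 19.3. At the upper edge of the Pmch-low class, cocaine library 1 had 2.18 FPKM and the nearest outside, cocaine library 3, had 2.83. The upper limit thus falls between 2 libraries with similar Pmch. In the injected libraries, Pmch ran from 0.406 to 41.4 FPKM with a median of 1.26, and 3 of 35 were above 9 FPKM.

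The classes were not balanced for drug. All 8 Pmch-low libraries were cocaine, whereas the Pmch-high class held 6 saline and 2 cocaine libraries (cocaine libraries 5 and 6), and the middle class held 5 cocaine and 3 saline libraries. Pmch class and drug therefore cannot be told apart in most of what follows, and the difference among cocaine libraries alone (2 against 8) is given beside the genes with the largest differences. The VTA dopamine markers were present in every library. Th, the rate-limiting enzyme of dopamine synthesis, had 249 ± 93.4 FPKM in the Pmch-high class and 285 ± 128 in the Pmch-low class (SD, n = 8 each). Slc6a3, the dopamine transporter, had 308 ± 118 and 279 ± 152 FPKM, and Slc18a2, the vesicular monoamine transporter, had 130 ± 53.7 and 121 ± 54.4. Both classes overlapped widely for these 3 genes.

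Single libraries stood apart. Cocaine library 6 (Pmch-high) had 27.9 FPKM of Slc17a7 (the vesicular glutamate transporter of cortex and other forebrain areas), 54.6 of Crym and 43.3 of Hdc, and saline library 4 (Pmch-high) had 701 FPKM of the pituitary hormone gene Gh and 559 of the haemoglobin gene Hba-a1. These genes, Hdc apart, were picked out after their values were seen. Values without cocaine library 6 are given where they move a result.

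Few genes separated the classes completely. Of the 13128 genes that averaged 1 FPKM or more in the 24 libraries, 3 (0.0229%) had all 8 Pmch-high values above all 8 Pmch-low values and at least a 1.5-fold difference on the log2(FPKM + 1) scale, among them Tac2 and Nkx2-1. In the other direction 2 genes did so (0.0152%), Pou4f1 and Htr1d. The filter takes the mean over all 24 libraries, so a gene can pass it through the class where it is high: 2 of the 3 higher genes, Nkx2-1 among them, averaged under 1 FPKM in the Pmch-low class, and with a filter of 5 FPKM the counts were 1 and 0. A looser rule, added after the data were seen, asked that at least 58 of the 64 pairs of a Pmch-high and a Pmch-low library differ in one direction, again by 1.5-fold. It gave 8 higher genes (0.0609%), of which 5 averaged under 1 FPKM in the Pmch-low class, and 17 lower genes (0.129%), none of which did so in the Pmch-high class. All differences below are Pmch-high minus Pmch-low means of log2(FPKM + 1), a scale that understates changes of low genes.

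Tac2 encodes neurokinin B, a tachykinin peptide made by hypothalamic and other forebrain neurons. Its FPKM ran from 5.15 to 35.9 (median 11.4) in the Pmch-high class, from 0.62 to 9.07 in the middle and from 0.751 to 2.74 (median 1.24) in the Pmch-low class. Every Pmch-high library was thus above every Pmch-low library, with a difference of 2.45. Cocaine library 6 held the top value of 35.9. Without it the difference was 2.23, and among cocaine libraries alone it was 3.19. Nkx2-1 (chr12:56531958-56536908) ran from 0.917 to 10.8 FPKM in the Pmch-high class and from 0.189 to 0.731 in the Pmch-low class, a difference of 1.16. Its 2 top values were 10.8 in cocaine library 6 and 4.47 in saline library 4, and without the first the difference was 0.90. Among cocaine libraries alone it was 1.88.

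Hcrt, the orexin precursor, had the second-largest positive difference of the genes named here (2.18) without separating the classes. Pmch-high values ran from 0 to 14.9 FPKM (median 5.56), and Pmch-low values from 0 to 0.357 (median 0.129), with 57 of 64 pairs higher. The Pmch-high saline libraries 4, 1 and 3 had 11.8, 10.6 and 14.9 FPKM and cocaine library 5 had 7.18. Cocaine library 6, in contrast, is listed at 0 for Hcrt despite 33.7 FPKM of Pmch, while it carried the top values of Hdc, Foxb1 and Tac2. Without that library the difference in Hcrt was 2.52, and among cocaine libraries alone it was 1.36. In the middle class only cocaine library 9 was above 0.3 FPKM, at 1.98.

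**Figure D1:**
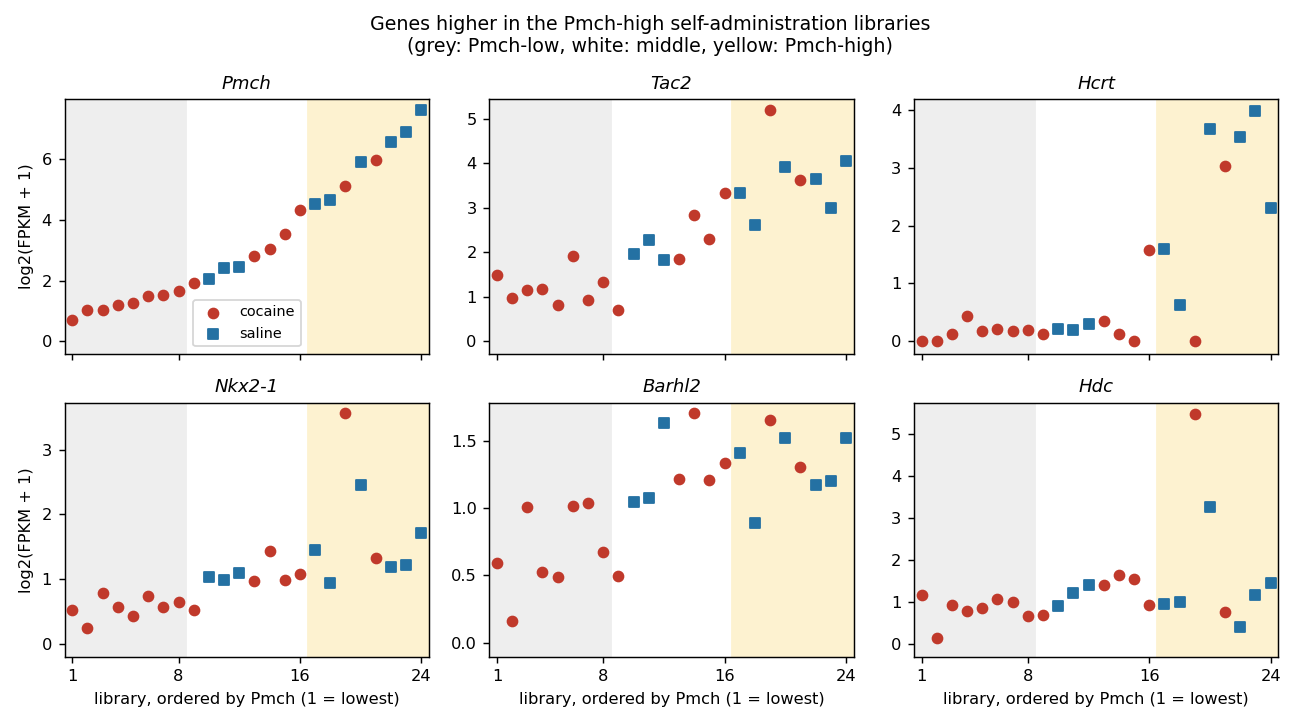
Level of 6 genes in each of the 24 self-administration libraries, as log2(FPKM + 1), ordered from the lowest to the highest Pmch; each point is 1 library, circles are cocaine and squares saline, and the shading marks the Pmch classes. Tac2 and Nkx2-1 had no overlap between the grey and yellow classes and Barhl2 little, whereas Hcrt is listed at 0 in cocaine library 6 and Hdc was high in 2 libraries only.

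Of these, Tac2 and Hcrt are shown by the 250 bases before their RefSeq start (GRCm38.p6), because they carried the 2 largest positive differences of the named genes. Ucn is added as the peptide gene on the opposite side, where Cartpt goes with it. Windows were searched on both strands for the TATA box core TATAAA. A second search took the homeodomain core TAATTA, and another the cAMP response element TGACGTCA. These motifs were chosen after the sequences had been read. Matches are in capitals, and none overlapped another.
Tac2, chr10:127724228-127724477, plus strand: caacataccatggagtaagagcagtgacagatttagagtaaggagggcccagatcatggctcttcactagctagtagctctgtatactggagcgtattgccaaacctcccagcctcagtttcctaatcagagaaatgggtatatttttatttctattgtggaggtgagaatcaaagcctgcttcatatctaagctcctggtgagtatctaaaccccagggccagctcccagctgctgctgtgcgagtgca
Hcrt, chr11:100762932-100763181, minus strand: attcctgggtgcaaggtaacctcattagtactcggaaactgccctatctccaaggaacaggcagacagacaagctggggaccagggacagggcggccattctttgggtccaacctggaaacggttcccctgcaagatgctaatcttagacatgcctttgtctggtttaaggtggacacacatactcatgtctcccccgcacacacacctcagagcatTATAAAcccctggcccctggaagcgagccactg
Ucn, chr5:31138896-31139145, minus strand: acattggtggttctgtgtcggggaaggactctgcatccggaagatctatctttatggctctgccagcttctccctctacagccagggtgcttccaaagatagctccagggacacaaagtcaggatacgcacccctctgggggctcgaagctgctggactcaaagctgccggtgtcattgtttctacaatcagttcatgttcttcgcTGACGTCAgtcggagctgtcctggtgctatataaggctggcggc
The Hcrt window held 1 TATAAA, found in 12.4% of 32851 promoter windows of this length, and the Tac2 window held none of the 3 motifs. The Ucn window held 1 TGACGTCA, as did that of Cartpt, a motif in 1.55% of the windows. TAATTA, in 4.84% of windows, was in none of these 4.

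The peptides and markers of the lateral hypothalamus did not all differ in one direction. Of 11 listed genes including Pmch, 8 others passed the filter, of which 6 were higher in the Pmch-high class and 2 lower, with a median difference of 0.18 against 0.001 over all genes tested. The 2 lower were Cartpt, whose -2.66 was the largest difference of the list in size, and Tacr3. With Cartpt in the sum, the listed genes other than Pmch added up to a median of 165 FPKM in the Pmch-high class and 377 in the Pmch-low class. No sum without Cartpt is given, so these sums do not show that the other listed genes were lower in the Pmch-high class. Nts, the neurotensin precursor, had 14.8 ± 6.23 FPKM against 9.70 ± 2.13 (difference 0.51), and Gal, the galanin precursor, 3.93 ± 1.84 against 2.56 ± 0.782 (0.41). Tac1, the substance P precursor, differed by 0.19, Nptx2, a secreted pentraxin, by 0.18, and Pdyn, the dynorphin precursor, by 0.08, each with overlapping classes. Tacr3, the receptor of neurokinin B, was lower in the Pmch-high class, at 12.8 ± 2.60 against 18.3 ± 4.70 FPKM. Qrfp and Lhx9 stayed under 1 FPKM on average, with Lhx9 at 0.681 ± 0.401 against 0.308 ± 0.164.

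Transcription factors of the hypothalamus were mostly at low levels. Of 27 listed, 8 passed the filter, 6 of them higher and 2 lower in the Pmch-high class, with a median of 0.25. Beside Nkx2-1, Zic1 differed by 0.53 and Meis2 by -0.40. Below the filter, Dlx2 (0.577 ± 0.344 against 0.0635 ± 0.0474 FPKM) and Dlx5 (0.719 ± 0.561 against 0.0724 ± 0.0654) did not overlap between the classes, and Dlx1 was higher in 63, Isl1 in 62 and Lhx6 in 61 of 64 pairs. Calcr, the calcitonin receptor, likewise did not overlap (1.49 ± 0.715 against 0.50 ± 0.0721). Dlx2, Dlx5, Dlx1, Isl1, Lhx6 and Calcr were chosen after their values were seen, and since the table holds no counts the counting error of such low values is unknown. The share of all genes below the filter that do the same was not counted, nor was the direction of the other listed ones. With the filter at 0.1 FPKM, 7 higher genes in all separated the classes completely with a 1.5-fold difference. The number of genes tested at that filter is not given here, so their share is unknown. Dlx2 and Dlx5 averaged under 0.1 FPKM in the Pmch-low class, so even that filter could be passed through the class where they are high. Single markers of other hypothalamic nuclei, picked from longer lists, were near 0 in both classes: Nr5a1 of the ventromedial nucleus had 0.00977 and 0.00593 FPKM, Oxt 0.0488 and 0.0282, Avp 0.166 and 0.0753, and Kiss1 0.0555 and 0.0719. They do not stand for their lists: of 24 arcuate and tuberal peptides, Oxt, Avp and Kiss1 among them, 14 passed the 1 FPKM filter.

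Histamine and mammillary genes were high in a few libraries. Hdc, the histamine-synthesizing enzyme, ran from 0.336 to 43.3 FPKM in the Pmch-high class (median 1.13) and from 0.110 to 1.27 in the Pmch-low class (median 0.861). Only cocaine library 6 (43.3) and saline library 4 (8.61) were above 2.2 FPKM of the 24 libraries, and the difference of 0.98 was 0.46 without cocaine library 6. The other listed histamine genes past the filter were also higher: Prph, a neuronal intermediate filament, by 0.41, Maob, which breaks down monoamines, by 0.29, the histamine receptor Hrh3 by 0.23 and Slc18a2 by 0.10. Wif1, below the filter, had 1.77 ± 3.24 against 0.354 ± 0.175 FPKM. Foxb1 ran from 0.947 to 9.76 FPKM in the Pmch-high class and from 0.643 to 1.16 in the Pmch-low class. Its top values were again cocaine library 6 (9.76) and saline library 4 (5.28), with a difference of 0.78, or 0.52 without cocaine library 6, under the 1.5-fold limit. Barhl2, a transcription factor of the mammillary region, ran from 0.850 to 2.16 against 0.116 to 1.06 FPKM and differed by 0.65, with 61 of 64 pairs higher. The 14 mammillary and supramammillary genes past the filter split evenly, with 7 higher and 7 lower and a median of 0.02, and Cck and Nkx6-1 had the largest negative values (-0.76 and -0.68).

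Arcuate and tuberal peptides, the signals of the basal hypothalamus, split into 8 higher and 6 lower of 14 past the filter, with a median of 0.12. Beside Tac2 they included Trh, the thyrotropin-releasing hormone precursor (2.58 ± 3.18 against 0.792 ± 0.235 FPKM, difference 0.70), Npy (0.66) and, lower, the synaptic organizer Cbln1 (-0.57). The Trh difference was 0.42 and that of Npy 0.38 without cocaine library 6. Receptors and signalling genes that the hypothalamus expresses had 14 higher and 11 lower of 25 and a median of 0.04. Magel2, an imprinted gene of the hypothalamus, differed by 0.43, the neuropeptide Y receptor Npy2r by 0.44 and the melanocortin receptor Mc3r by -0.44. The receptors of the lateral hypothalamic peptides are on the receiving cells, and Mchr1 differed by 0.13, Hcrtr1 by -0.39 and Hcrtr2 by -0.02.

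The 8 genes of the looser rule on the high side included Tac2, Nkx2-1, Foxb1, Barhl2, Slc17a7, Ddn and Gda. Ddn (dendrin, a postsynaptic protein of forebrain neurons) and Slc17a7 had their top values in cocaine library 6, at 26.0 and 27.9 FPKM. Slc17a7 was at 0.114 to 0.335 FPKM in the Pmch-low class and at 0.307 to 27.9 in the Pmch-high class, where saline library 1 had 7.15 and saline library 7 had 2.61. Its difference of 1.54 became 1.11 without cocaine library 6. Among the 4 cortical and hippocampal markers past the filter, 2 were higher and 2 lower, with a median of 0.00.

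On the low side, Cartpt and Ucn had the most negative differences of the named genes. Cartpt encodes a peptide, and its FPKM ran from 68.9 to 615 (median 265) in the Pmch-low class and from 11.3 to 274 (median 26.2) in the Pmch-high class, a difference of -2.66. Only saline library 3 (274) and saline library 2 (102) of the Pmch-high class were above 100 FPKM. Among cocaine libraries alone the difference was -3.90, from 25.1 and 11.3 FPKM in cocaine libraries 6 and 5. Ucn (urocortin, chr5:31138063-31138829) ran from 0.243 to 25.1 in the Pmch-low class and from 0 to 12.1 in the Pmch-high class, a difference of -2.21, or -3.04 among cocaine libraries alone. Saline library 3 again had the top Pmch-high value of 12.1, and the Pmch-low cocaine library 11, with 0.243 FPKM of Ucn, had the lowest Cartpt of its class at 68.9. Middle saline library 6 was low for both genes, with 7.05 FPKM of Cartpt and 0.153 of Ucn.

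Pou4f1, a transcription factor of red nucleus and habenula neurons, ran from 2.74 to 7.09 FPKM in the Pmch-low class and from 0.157 to 2.12 in the Pmch-high class (difference -1.21). Htr1d, a serotonin receptor, ran from 2.21 to 5.48 against 0.574 to 1.96 (difference -0.87). For both genes the classes did not overlap, cocaine library 6 had the lowest and cocaine library 0 the highest value, and among cocaine libraries alone the differences were -1.66 and -1.05. The looser rule added the neurofilament subunits, structural proteins of thick axons. Nefh, Nefm and Nefl differed by -0.92, -0.87 and -0.76, with Nefh at 46.3 ± 14.7 FPKM against 90.1 ± 37.1. Spp1 (osteopontin) had 31.4 ± 12.1 against 71.5 ± 45.9, and the synaptic organizer C1ql2 had 5.54 ± 2.03 against 17.0 ± 9.96. Foxa2, which maintains midbrain floor plate and dopamine neuron identity, had 4.57 ± 1.35 against 7.48 ± 0.669 and was lower in all but 1 of 64 pairs. The remaining genes were C1ql4, Serpina3g, Klk6, Cck, Casr, Kcnab1, Sgpp2 and Esrrb, with differences between -1.06 and -0.59.

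**Figure D2:**
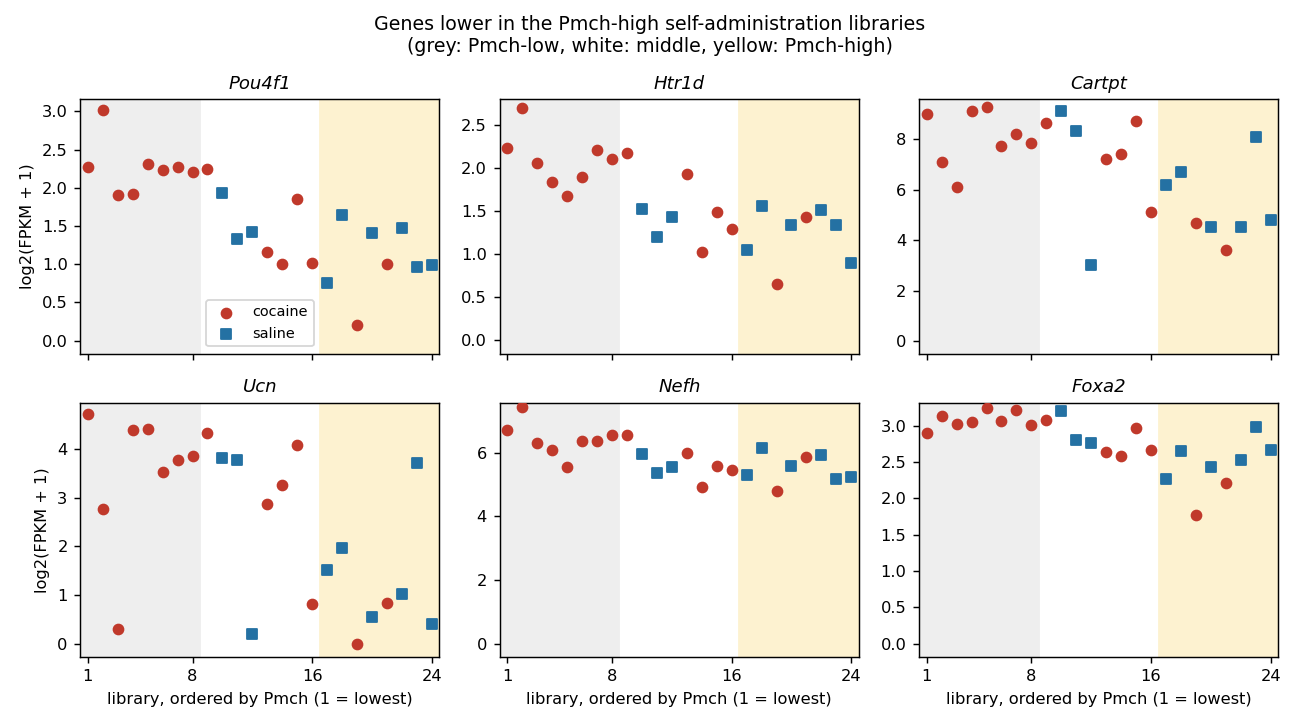
Level of 6 genes in each of the 24 self-administration libraries, as log2(FPKM + 1), with the same order, symbols and shading as in the plot of Pmch and Tac2. Pou4f1 and Htr1d had no overlap between the grey and yellow classes, while Cartpt and Ucn were low in most Pmch-high libraries but not in saline library 3.

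Markers of other cell types differed in either direction. The 19 dopamine neuron genes past the filter had a median difference of -0.06 (7 higher, 12 lower), led by Foxa2. Myelin genes had a median of -0.11 (2 higher, 8 lower), with their summed level between 3702 and 8754 FPKM in the Pmch-high class and between 4591 and 7587 in the Pmch-low class. Of 9 astrocyte genes 8 were higher (median 0.14, led by Gfap at 0.45 and Slc1a3 at 0.41), and of 9 microglia genes 8 were higher (median 0.18). Of 9 endothelial and pericyte genes 7 were lower (median -0.17). Thalamic and subthalamic genes had 10 of 12 higher (median 0.17), with Ramp3 at 0.53 and Ntng1 at -0.44, and striatal genes 6 of 7 (median 0.12). Tanycyte and ependymal genes had 8 of 10 lower (median -0.14), serotonin neuron genes 3 of 3 lower (median -0.13), and the 2 choroid plexus genes past the filter differed by 0.27 and -0.12. The motor and red nucleus list had 3 genes past the filter and a median of -0.30. Pituitary hormone genes summed to 0.994 to 919 FPKM in the Pmch-high class and to 1.56 to 102 in the Pmch-low class, with the top value in saline library 4. The part of these cell types in the differences above was not tested, and in bulk tissue fewer cells of a type and less RNA per cell cannot be told apart.

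**Figure D3:**
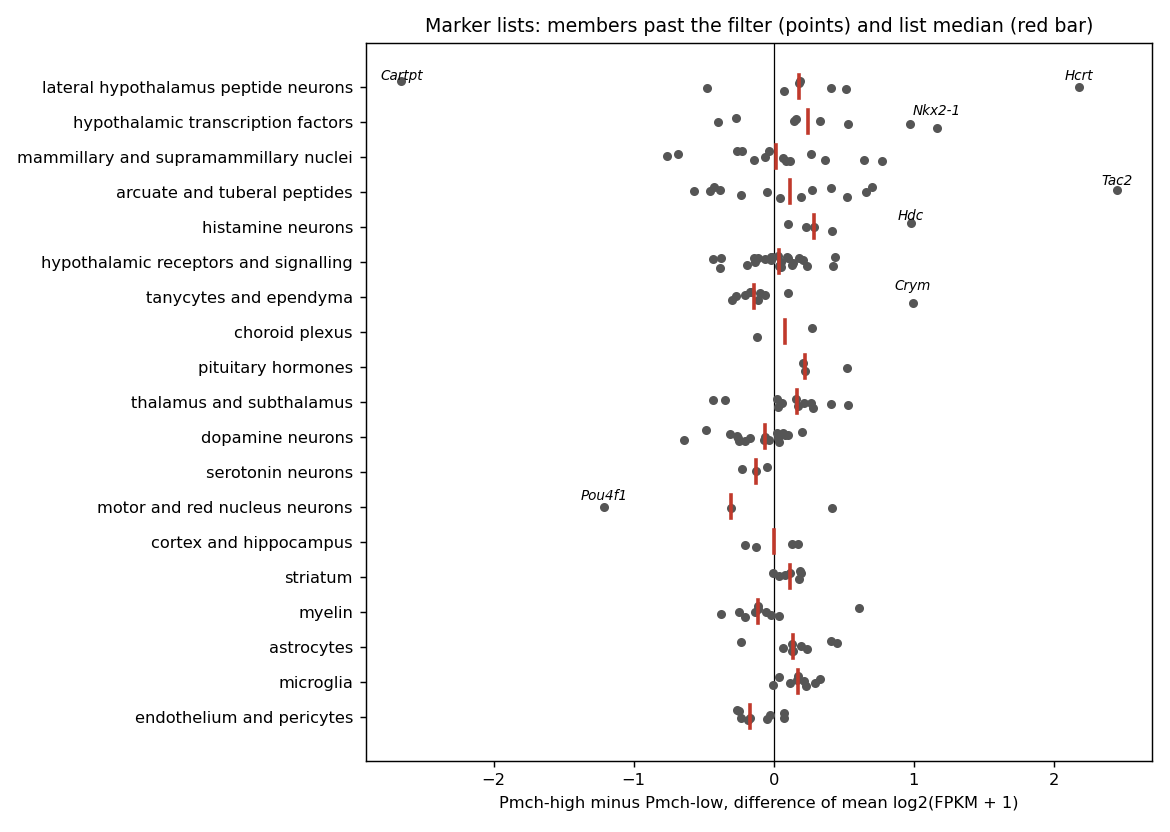
Difference between Pmch-high and Pmch-low means of log2(FPKM + 1) for each member of 19 marker lists averaging 1 FPKM or more (Pmch and Parpbp left out); each grey point is 1 gene and the red bar is the list median. Most lists centred near 0, and the points far from 0 were single genes: Tac2 at 2.45, Hcrt at 2.18, Pou4f1 at -1.21 and Cartpt at -2.66.

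The 35 injected libraries, none of which entered the choice of classes, allowed a test of which genes went with Pmch. A slope per unit of log2(Pmch FPKM + 1) was fitted by limma with the 6 groups as covariates. Of 13172 genes tested, 431 (3.27%) had a positive and 504 (3.83%) a negative slope at an adjusted p under 0.05. The counts were 157 and 149 without the 3 libraries above 9 FPKM of Pmch. Of the 56 called genes in the lists and rules used here, 25 lost their call in that fit. Pmch ran only from 0.406 to 5.21 FPKM there, so no library rich in Pmch was left in it. The unknown counting error of low values applies to Pmch there too. With the acute libraries left out limma called no gene, while 1026 positive and 1036 negative genes had an unadjusted p under 0.05. Of the 431 positive genes, 430 were measured in self-administration and 375 of them (87.2%) were higher in the Pmch-high class, with a median difference of 0.09. Of 495 negative genes measured there, 463 (93.5%) were lower, with a median of -0.19. Over all 13128 genes, 6596 were higher and 6524 lower.

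Tac2 had one of the steepest positive slopes, 0.49 ± 0.10 (SE; limma adjusted p = 0.00412). Its injected values ran from 0.419 to 5.78 FPKM, with 5.21 in acute saline library 4, where Pmch was 41.4, and 4.94 in chronic cocaine library 5, where Pmch was 11.5. Without the 3 libraries above 9 FPKM of Pmch, where Pmch reached only 5.21 FPKM, the slope was steeper, 0.90 (limma adjusted p = 0.0257). Pou4f1 had a slope of -0.35 ± 0.07 (limma adjusted p = 0.00408) and Htr1d one of -0.31 ± 0.07 (limma adjusted p = 0.00665), both in the direction seen in self-administration. Both kept their call without the 3 libraries (limma adjusted p = 0.0257 and 0.0281). Nkx2-1 was below the filter in these libraries. With the filter lowered to 0.1 FPKM (16169 genes, 451 positive or 2.79%, 525 negative or 3.25%), Nkx2-1 had a slope of 0.25 ± 0.07 (limma adjusted p = 0.0383).

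Under the same lower filter, Dlx1, Dlx2, Lhx6 and Dlx5 had positive slopes with limma adjusted p-values of 0.00243, 0.00422, 0.00422 and 0.0239. They were picked from 27 listed transcription factors after their self-administration values were seen, and that list was not counted at this filter. Isl1, picked beside them in self-administration, has no slope given here, so these genes are not the whole picked set. Above the 1 FPKM filter 7 of the 27 were tested, with a median slope of -0.11, none called positive and 1 negative. Each of Dlx1, Dlx2, Lhx6 and Dlx5 averaged under 1 FPKM, a level whose counting error is unknown, and no library was left out at the lower filter. Hcrt did not pass (slope 0.30, limma adjusted p = 0.104): its injected values were at most 1.29 FPKM apart from chronic saline library 1 (7.09), conditioning saline library 0 (4.77) and acute saline library 4 (2.37), whose Pmch was 3.53, 9.24 and 41.4 FPKM. Hdc did not pass either (slope 0.10, limma adjusted p = 0.372). Calcr, which separated the classes in self-administration, had a limma adjusted p of 0.773 here.

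In the lateral hypothalamus list, 2 of 7 tested genes had positive slopes, against 3.27% of all genes, and none a negative one: Tac1 at 0.33 (limma adjusted p = 0.0211) and Nts at 0.24 (limma adjusted p = 0.00899). Neither kept its call without the 3 libraries above 9 FPKM of Pmch, where the slopes were 0.61 and 0.34 (limma adjusted p = 0.0507 and 0.0948). Of 14 mammillary and supramammillary genes, 4 were positive and none negative. They included Barhl2 (0.34), Barhl1 (0.30) and Foxb1 (0.21), with limma adjusted p-values of 0.00863, 0.00933 and 0.0365. Without the 3 libraries the call of Foxb1 was lost (limma adjusted p = 0.0563) and those of Barhl2 and Barhl1 were kept (0.0486 and 0.0257). In the 35 fits that each left out 1 library, the call of Foxb1 was lost in 7, that of Tac1 in 1 (without chronic cocaine library 5), and those of Barhl1, Barhl2, Nts, Tac2, Pou4f1 and Htr1d in none. None of the 4 histamine genes tested passed, and of 7 hypothalamic transcription factors above the 1 FPKM filter only Otx1 did, with a negative slope (-0.15, limma adjusted p = 0.0209). The call of Otx1 was lost without acute saline library 4 or acute saline library 0, and without the 3 libraries (limma adjusted p = 0.107).

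Of the 8 higher genes of the looser rule, 5 were tested here and 4 of them had a positive slope (Tac2, Barhl2, Foxb1 and Gda), against 3.27% of all genes. Ddn, the other, did not pass (limma adjusted p = 0.16). The call of Gda was lost without acute saline library 0 or acute saline library 4. Of the 17 lower genes, 14 had a negative slope, against 3.83% of all genes, and 10 of the 14 kept the call without the 3 libraries above 9 FPKM of Pmch. Those that lost it were Klk6, Foxa2, Nefm and C1ql4 (limma adjusted p = 0.176, 0.064, 0.0558 and 0.0538), and Klk6 also lost it in 12 of the 35 fits without 1 library and Nefm in 1 (without conditioning saline library 0). The steepest of these was C1ql2 at -0.66 ± 0.14 (limma adjusted p = 0.00683), followed by Spp1 at -0.46 (0.0129) and Nefh at -0.38 (0.00766). The 3 that did not pass were Cartpt, Cck and Casr. Cartpt had a slope of -0.29 ± 0.38 and a limma adjusted p of 0.699, with injected values from 5.49 to 1411 FPKM, and Ucn one of -0.30 ± 0.36 (limma adjusted p = 0.665). In acute saline library 4, which had the top injected Pmch, Cartpt was at 650 and Ucn at 106 FPKM.

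The smallest p-values in the injected libraries belonged to genes with shallower slopes. On the positive side these were Htr2c, a serotonin receptor (0.09), Dclk1 (0.08), Mycl (0.12), Umad1, Gprasp2, Cse1l, Mmd, Fam65b, Rragd and Pnmal1, and all but Cse1l were also higher in the Pmch-high class. Htr2c had 46.4 ± 7.42 against 41.9 ± 1.72 FPKM there. On the negative side they were Zyx (-0.17), Slc4a2 (-0.12), Galnt6, Elovl1, Gas6, Carns1, Inpp5j, Scrt2, Agtrap and Fgf11 (-0.25), all 10 of which were lower in the Pmch-high class. Fgf11, a fibroblast growth factor homologue that binds sodium channels, had 11.0 ± 1.91 against 17.6 ± 6.33 FPKM. Without the 3 libraries above 9 FPKM of Pmch, 6 of these 10 positive and 6 of the 10 negative genes kept their call, Htr2c, Dclk1, Zyx, Slc4a2 and Fgf11 among them. Myelin genes had 4 negative slopes of 10 tested (Mag, Mobp, Cnp and Trf), against 3.83% of all genes, with Mag at -0.10 (limma adjusted p = 0.00325), and no positive one. Of these 4 only Trf kept its call without the 3 libraries, where Mag, Mobp and Cnp had limma adjusted p-values of 0.146, 0.128 and 0.359, and leaving out 1 library ended the call of Mobp in 5 fits and that of Cnp in 2 (without chronic cocaine library 5 or acute saline library 4). Of 20 dopamine neuron genes tested 1 passed, near the 3.83% of all genes: Foxa2, at -0.14 (limma adjusted p = 0.0113), or 0.064 without the 3 libraries. Th and Slc6a3 had slopes of -0.04 ± 0.13 and 0.06 ± 0.14.

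**Figure D4:**
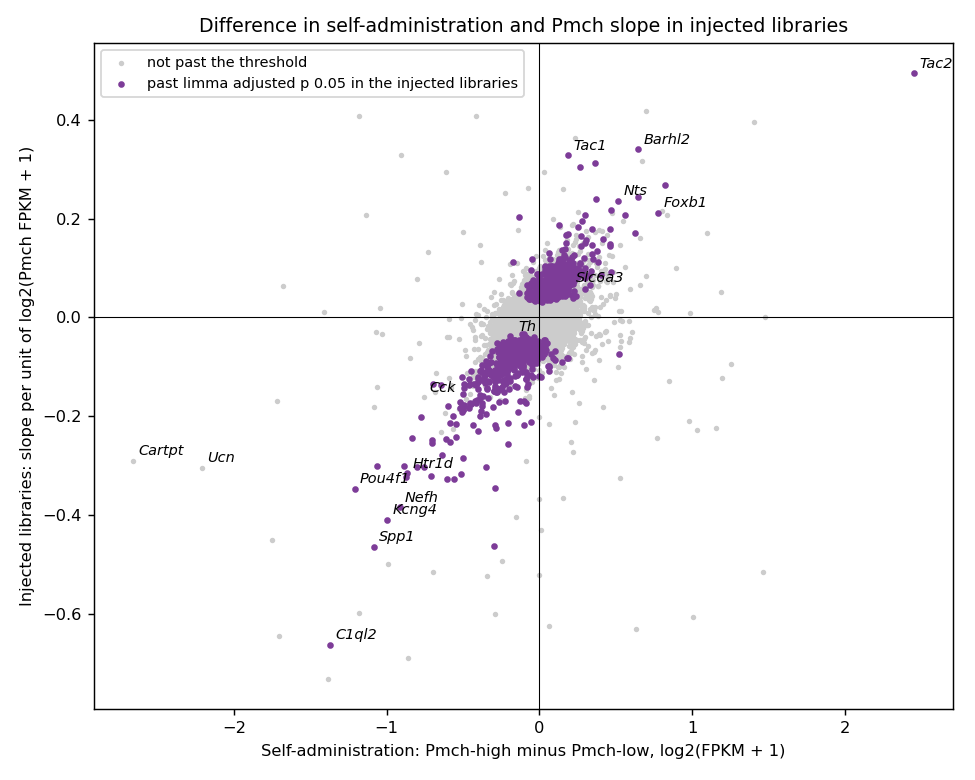
Each point is 1 gene: the x axis is the Pmch-high minus Pmch-low difference in log2(FPKM + 1) among self-administration libraries, and the y axis is the slope per unit of log2(Pmch FPKM + 1) in the 35 injected libraries; purple genes passed a limma adjusted p of 0.05. Tac2 lies at the upper right and Pou4f1, Nefh and C1ql2 at the lower left, while Cartpt and Ucn, far left, did not pass in the injected libraries.

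Since all Pmch-low libraries were cocaine, the same genes were also compared by drug label. Among 15 cocaine and 9 saline self-administration libraries, limma called no gene at an adjusted p under 0.05 (0 of 13130, 0%). Before adjustment 450 genes had a p under 0.05, of which 212 were higher and 238 lower with cocaine. With log2(Pmch FPKM + 1) as a covariate 139 genes did so (64 higher, 75 lower), and again none passed the adjusted threshold. Hcrt was lower in cocaine libraries by a log2 difference of -1.39 ± 0.48 (SE) in the first fit and of -0.25 ± 0.37 in the second. For Tac2 (-0.98, then 0.24), Nkx2-1 (-0.38, then 0.16), Pou4f1 (0.45, then -0.10) and Cartpt (1.18, then -0.13) the sign of the drug difference turned once Pmch was in the fit. Htr1d kept its sign (0.46, then 0.13). Tac2, Nkx2-1, Pou4f1 and Htr1d were picked because they parted Pmch classes that were unbalanced for drug in these same libraries. A smaller or turned drug difference with Pmch in the fit thus follows in part from that choice and is no result about drug. The turned values each had a limma adjusted p of 0.999908 in the second fit. None of these drug differences passed the adjusted threshold in either fit, and drug and Pmch class cannot be told apart for them.

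**Figure D5:**
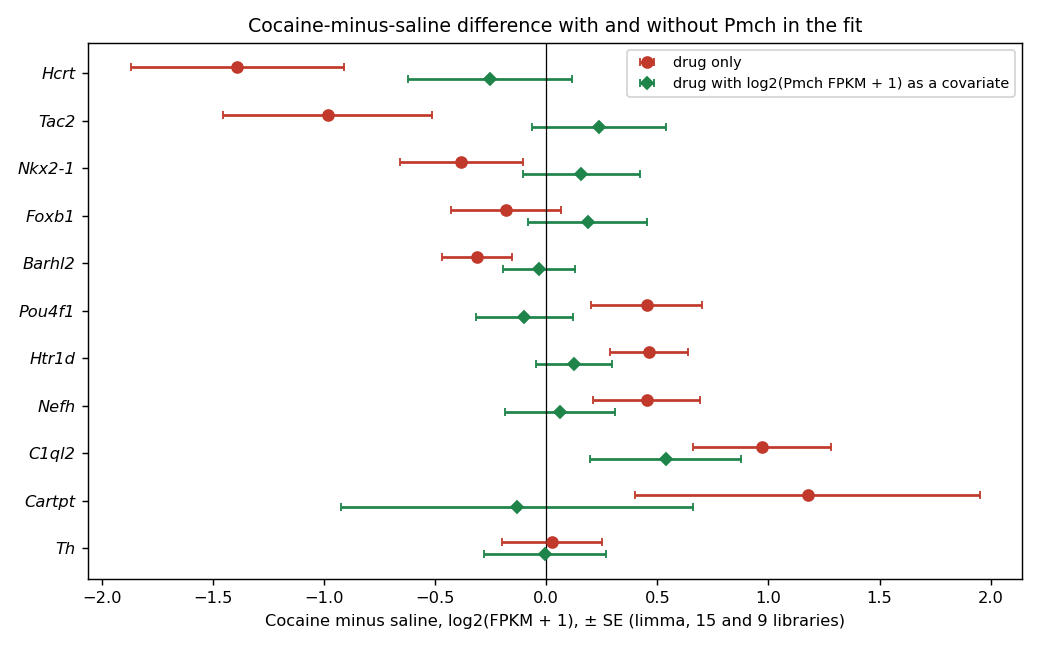
Cocaine minus saline difference in log2(FPKM + 1) for 11 genes among 15 cocaine and 9 saline self-administration libraries, with bars of ± 1 SE; circles are from the fit with drug alone and diamonds from the fit with log2(Pmch FPKM + 1) added. Hcrt moved from -1.39 to -0.25 and Tac2 from -0.98 to 0.24, and no difference passed the adjusted threshold in either fit.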

How the data were processed

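Total RNA of the VTA was purified with an RNeasy kit and made into TruSeq libraries, per the labels. FPKM values for 24346 gene symbols in 59 libraries were deposited by the authors. Bowtie, Cuffnorm and mm10 are named in the submitters' processing notes. Their versions, the annotation and the scaling were not given in the sources used here. FPKM keeps no counts: low values did not give whole-read steps (the most frequent step held 1.05% to 8.23% of low genes), so depth is unknown and no counting interval is given. FPKM sums ran from 398577 to 457508 per library. A library rich in a few abundant transcripts lowers all its other FPKM values.

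All fits used log2(FPKM + 1) and kept genes that averaged 1 FPKM or more in a comparison. Gene levels in the Pmch classes were described with no test, and a Fisher's exact test of drug label by class supports nothing here, since the classes are the Pmch order itself. Slopes and drug differences were fitted with limma 3.58.1 in R 4.3.3 (trend and robust empirical Bayes, two-sided, Benjamini and Hochberg adjustment over all genes tested, threshold 0.05). The code was also run on simulated data with independent noise and built-in slopes larger than most of those reported here. That run does not vouch for the calls in these data. The members and the 19 marker lists were chosen with earlier results of these data known. Named genes were those past the complete-separation rule (up to 15 higher and 10 lower), up to 10 per direction with the smallest p in the injected fit, every lateral hypothalamus and histamine gene, 2 to 4 leading members of other lists, and 7 fixed genes (Hcrt, Cartpt, Foxb1, Hdc, Th, Slc6a3, Slc18a2). Ucn, Calcr and the genes of the looser rule were added after their values were seen. Gene positions are from GENCODE M21 (275 of 276 symbols matched) and promoter windows from RefSeq GRCm38.p6. Some genes counted here are not reported by name.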

Additional observations from a re-analysis of the deposited data

Results flagged for a closer look

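Of 36 sets of 8 values (18 genes in each Pmch class), 5 had 1 library far from the other 7. About 1 set in 20 would be flagged for normally spread values of genes named in advance. Ucn, Spp1 and Crym were named after their values were seen, Crym with its value in cocaine library 6. That rate is therefore no yardstick for these 5 flags. In the Pmch-low class, cocaine library 0 was far above the others for Pou4f1 (7.09 FPKM) and for Spp1 (181 FPKM), and cocaine library 14 for Hcrt (0.357 FPKM), a level near the bottom of the scale. Cocaine library 11 of the same class was far below the others for Ucn, at 0.243 FPKM. In the Pmch-high class, cocaine library 6 was far above the others for Crym, at 54.6 FPKM. Without cocaine library 6 the difference between classes in Crym was 0.36 in place of 0.99 on the log2(FPKM + 1) scale.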

How the results depend on the processing

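The number of genes that separated the classes completely (3 higher, 2 lower) depended on the settings. It was 7 higher with a filter of 0.1 FPKM, and 1 higher and 0 lower with one of 5 FPKM, each of a number of genes not given here. Of the same 13128 genes, it was 0 and 0 with 12 against 12 libraries, and 8 and 17 under the looser rule. Among cocaine libraries alone (2 against 8) it was 47 and 31 of 13128. Complete separation is far easier to reach with 2 libraries on one side. Those counts therefore do not show that more genes separate among cocaine libraries. Leaving out each library in turn gave 3 to 4 higher and 2 to 8 lower genes. The lower count was 8 without cocaine library 7, 5 without cocaine library 4, and 4 without cocaine library 11 or saline library 1. No comparison within saline libraries was run, since none was Pmch-low. Fisher's exact test of drug label by class, which rests on the Pmch order that chose the classes, had a two-sided p of 0.00699, of 0.0606 with 6 against 6 and of 0.40 with 12 against 12.

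The injected slopes (431 positive, 504 negative) were 777 and 759 with no covariate, 850 and 831 with library quality weights, 30 and 74 without the chronic libraries, 136 and 182 without conditioning, and 157 and 149 without the 3 libraries above 9 FPKM. Without the acute libraries they were 0 and 0, and the 56 genes of the lists and rules that had passed then had adjusted p-values of 0.0937 to 0.42. Leaving out 1 library at a time gave 170 to 523 positive and 278 to 591 negative genes. The counts were 170 and 278 without acute saline library 0, 185 and 282 without chronic cocaine library 5, 260 positive without acute saline library 4, and 271 positive without conditioning saline library 4. Of those 56 genes, 41 kept their call in every such fit, and 31 kept it without the 3 libraries above 9 FPKM. In the drug fits, leaving out 1 library gave 0 to 0 genes, and 4 differences reversed with Pmch as a covariate: Tac2 (0.24), Nkx2-1 (0.16), Pou4f1 (-0.10) and Cartpt (-0.13). Each of the reversed values had a limma adjusted p of 0.999908, and none is a result about drug. No other value was labelled reversed under the alternatives run, which included quantile normalization and another pseudocount. In the class contrast only genes past the complete-separation rule could get that label. A change of sign in Hcrt, Cartpt, Ucn, Hdc or Foxb1 was thus not looked for. Of the 10 gene differences rerun there, 8 moved by at least the SD within classes under some alternative (12 values). The cause of these changes was not tested.

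No paired analysis was possible because the table numbers its columns from 0 and nothing links those numbers to the replicates of the labels. FPKM gives no depth, so the counting error of values under about 1 FPKM is unknown.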
